A study of Mus musculus with 2 samples.

Results

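Among the leukocytes of mouse CT-2A gliomas, 1448 of 23660 cell barcodes were macrophage-like cells that scored highest for Ptgs2, Vegfa, Il1rn, Cxcl2 and Ccrl2. There were 546 such cells in the wildtype library and 902 in the Glut5 KO library. To be considered, a cell needed at least 300 detected genes, under 10% mitochondrial transcripts and at least 100 of every 10000 transcript tags from Lyz2, C1qa, C1qb, C1qc and Apoe. It could hold at most 1 tag of the microglial genes P2ry12, Tmem119, Sall1, Gpr34, Olfml3 and Crybb1. It had no tag of the T cell genes Cd3e, Cd3d and Cd3g, at most 1 of 6 dendritic cell genes, and at most 2 of 5 genes of dividing cells. These limits kept 2469 wildtype and 3166 Glut5 KO cells, called the gated macrophages here. Each was scored on 4 gene sets, as the mean over the set of each gene's standardised log level, and went to the set with its highest score. The 5 genes above formed the set described here, and their carriers are called Ptgs2/Vegfa macrophages. The other sets were Ly6c2, Chil3, Plac8 and Vcan (set a), Fcrl5, Klra17, Cd300e, Acp5 and Ms4a7 (set c), and Pf4, Spp1, Fabp5, Mrc1 and Vcam1 (set d).

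The 5 genes belong to a programme that macrophages switch on when danger signals or low oxygen reach them. Danger signals act largely through NF-kB, a transcription factor family that induces cytokines, chemokines, prostaglandin synthesis and its own inhibitors, while low oxygen acts through hypoxia-inducible factors, which induce vessel growth factors and glycolysis. In gliomas such cells are known from the borders of poorly perfused tissue, where they draw in other myeloid cells and feed vessel growth.

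The tumours came from CT-2A, a mouse glioma cell line implanted into the brain of wildtype mice and of Glut5 KO mice, which lack the fructose transporter encoded by Slc2a5. They were removed after 14 days, and CD45+ leukocytes were isolated with magnetic beads before droplet sequencing of transcript 5' ends, with 16000 cells loaded per library. Each genotype is represented by 1 library. No difference here has a replicate check or a test, and genotype and library cannot be told apart. The submitters' design text speaks of a knockdown where the sample labels say KO. The sources used here do not give the number or sex of the animals, nor which exons were deleted.

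The libraries held 116105873 tags (unique molecular identifiers, UMIs) in 11495 wildtype barcodes and 96851696 in 12165 Glut5 KO barcodes. Ptgs2/Vegfa macrophages had median depths of 5810 and 5790.5 UMIs per cell, and their sums were 3340630 and 5252448 UMIs. The cells of set d were shallower in Glut5 KO (median 1898.5 UMIs) than in wildtype (3822), and so were those of set c (2668 against 5634). Of all barcodes, 188 occurred in both libraries, 2 of them among Ptgs2/Vegfa macrophages. Levels are UMIs of a gene per 1e6 UMIs of the summed cells (CPM), and all intervals are exact 95% intervals that cover counting error only.

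Ptgs2/Vegfa macrophages were 22.1% of gated wildtype macrophages (Clopper-Pearson interval 20.5 to 23.8) and 28.5% of gated Glut5 KO macrophages (26.9 to 30.1). Of all cells that passed the gene and mitochondrial filters they were 4.76% and 7.45%. Cxcl2 and Ptgs2, which chose the cells, themselves stood at different levels in these cells of the 2 libraries, so the shares describe the outcome of the rule. Whether a cell type changed in number was not tested. With scores standardised within each library the shares were 25.4% and 26.6%. The set is also a range with no gap at its edge. In wildtype 92 cells lay inside the cut by less than 0.1 score units and 90 lay as near outside it, and in Glut5 KO the numbers were 95 and 127. Cells just inside the cut had 269 CPM of Ptgs2 in wildtype and 349 in Glut5 KO, and those just outside had 245 and 219. Il1rn and Ccrl2 were also higher just inside in both libraries. Cxcl2 ran the other way, with 83.5 CPM just inside and 306 just outside in wildtype, and 257 and 280 in Glut5 KO. Vegfa was at 222 CPM inside and 286 outside in wildtype, and at 303 and 182 in Glut5 KO.

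The gene seen in most of the cells was Ccrl2, which encodes a chemerin-binding receptor without known signalling of its own, with a UMI in 96.2% of the wildtype and 92.0% of the Glut5 KO cells. It stood at 1665 CPM in wildtype and 1950 CPM in Glut5 KO, against 679 and 693 CPM in the other gated macrophages. Il1rn, the secreted antagonist of the interleukin-1 receptor, stood at 932 and 1047 CPM, against 366 and 310. Ptgs2, the inducible cyclooxygenase that starts prostaglandin synthesis, stood at 408 and 620 CPM, against 106 and 106. Each of these genes was thus above its level in the other gated macrophages of both libraries, as the choice of cells required. Vegfa, the main vessel growth factor, was at 407 and 465 CPM, against 151 and 142. Cxcl2, a chemokine that attracts neutrophils, was at 385 and 806 CPM, against 85.8 and 101. Cxcl2 was the gene of the 5 that differed most between the libraries, with a log2 ratio of Glut5 KO over wildtype of 1.07 [0.98 to 1.16], and Il1rn differed least (0.17 [0.10 to 0.23]). In cells called male or female by their transcripts, described below, the Cxcl2 ratio was 1.34 in male and -0.39 in female cells. Those of Il1rn (0.26 and -0.53) and Ccrl2 (0.34 and -0.67) also differed in sign between male and female cells.

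**Figure D1:**
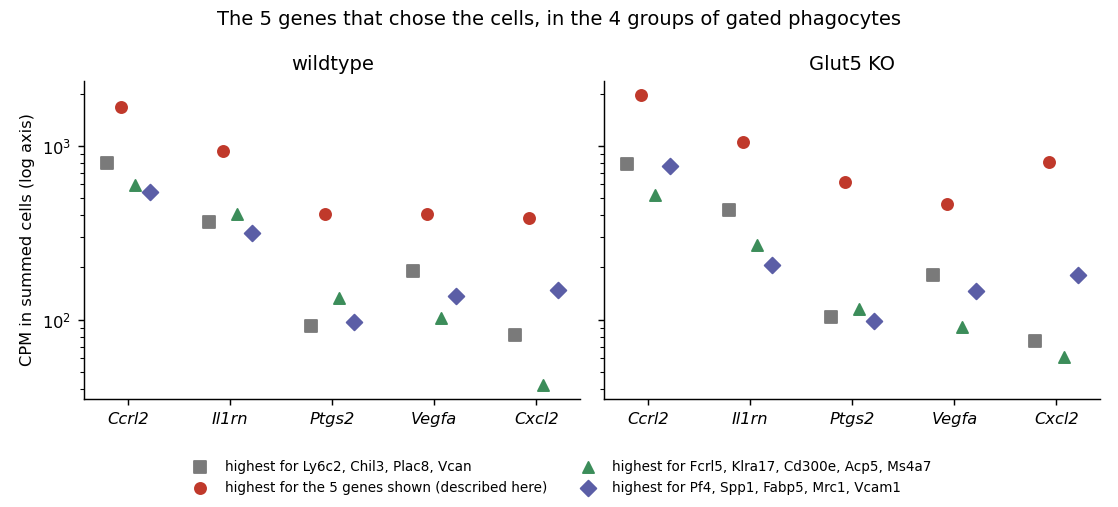
Levels of the 5 genes that chose the cells (CPM of summed cells, log axis) in the 4 groups of gated macrophages, in the wildtype (left) and Glut5 KO (right) libraries. The circles, cells highest for these genes, stand above the other groups for every gene, and the Cxcl2 circle is at 385 CPM in wildtype and 806 CPM in Glut5 KO.

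Few single cells showed all 5 transcripts. All 5 had a UMI in 12.5% of the wildtype and 19.6% of the Glut5 KO cells, and 4 of them in 43.2% and 40.5%. With every cell thinned to 1000 UMIs, which left out 5 wildtype and 77 Glut5 KO cells, Cxcl2 was seen in 15.2% and 28.5% of the cells, while without thinning it was seen in 31.7% and 42.8%. T cells, taken as the background of free RNA, gave 0.551% and 0.994% after thinning (median depths before thinning 8373 and 6849 UMIs). Thinned shares of Ptgs2 were 29.2% and 40.0%, against 1.93% and 0.852% in T cells. Those of Vegfa were 33.6% and 34.8%, against 2.20% and 1.42%. Those of Il1rn were 49.0% and 50.2%, against 1.10% and 1.99%. Ccrl2 had the highest T cell shares, 12.9% and 10.4%, against 69.7% and 74.1%. The cells were chosen for these transcripts, so their shares describe the choice.

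The stretches before the starts of 4 of the genes are shown because NF-kB and hypoxia-inducible factors are the textbook regulators of several of them. These are the 250 bases before the first listed start of Cxcl2, Ccrl2, Ptgs2 and Vegfa (RefSeq, GRCm38.p6), written 5' to 3' on the gene's strand. Capitals mark matches, on either strand, to GGG, any 5 bases and CC, a loose NF-kB motif, or to ACGTG or GCGTG, the core bound by hypoxia-inducible factors.
Cxcl2, chr5:90903649-90903898, plus strand: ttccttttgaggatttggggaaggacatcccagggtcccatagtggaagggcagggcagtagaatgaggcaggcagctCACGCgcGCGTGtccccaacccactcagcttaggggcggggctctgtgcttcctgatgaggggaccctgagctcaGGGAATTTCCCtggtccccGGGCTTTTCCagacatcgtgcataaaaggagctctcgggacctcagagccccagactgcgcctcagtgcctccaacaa
Ccrl2, chr9:111057519-111057768, minus strand: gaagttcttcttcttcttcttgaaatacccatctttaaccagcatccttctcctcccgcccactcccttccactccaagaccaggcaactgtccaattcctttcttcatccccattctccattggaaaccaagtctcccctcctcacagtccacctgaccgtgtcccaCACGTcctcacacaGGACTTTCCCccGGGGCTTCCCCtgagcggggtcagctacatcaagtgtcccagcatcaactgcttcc
Ptgs2, chr1:150099781-150100030, plus strand: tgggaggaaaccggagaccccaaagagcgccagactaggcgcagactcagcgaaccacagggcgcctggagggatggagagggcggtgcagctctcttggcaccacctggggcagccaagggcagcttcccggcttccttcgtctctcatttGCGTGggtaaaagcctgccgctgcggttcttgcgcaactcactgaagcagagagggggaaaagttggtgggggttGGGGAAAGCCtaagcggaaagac
Vegfa, chr17:46032378-46032627, minus strand: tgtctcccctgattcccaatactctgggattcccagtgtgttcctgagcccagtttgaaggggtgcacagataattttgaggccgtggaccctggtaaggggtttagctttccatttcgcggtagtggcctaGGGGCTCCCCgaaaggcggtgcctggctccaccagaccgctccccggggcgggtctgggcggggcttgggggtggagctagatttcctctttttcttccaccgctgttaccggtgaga
The Ccrl2 window held 5 NF-kB matches, of which 4 overlap one another on both strands at 1 place, and 1 hypoxia match. In Cxcl2 there were 3 NF-kB matches, 2 of them overlapping, and 2 hypoxia matches. Ptgs2 had 1 match of each kind. Vegfa had 2 NF-kB matches, which are the same 10 bases matched on both strands, and 0 hypoxia matches in this window, while its second listed start had 2 hypoxia matches. Il1rn, with 3 listed starts, had 1 NF-kB match at the first and 1 at the third, and 1 hypoxia match at the first. Such matches are common: 45.8% of 32851 mouse promoter windows of this length held the NF-kB motif and 38.6% held a hypoxia core, and a match is no evidence of binding.

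The cells carried macrophage transcripts together with a good part of the monocyte programme. All 12 macrophage markers had UMIs, with a summed level of 31618 CPM in wildtype and 29430 CPM in Glut5 KO. Of these markers, Lyz2, C1qa, C1qb, C1qc and Apoe were genes of the gate, and Ms4a7 was a gene of set c. The sum thus describes the choice of cells in part. C1qa, a complement subunit made by mature macrophages, was at 3526 and 3868 CPM, above the cells of set a (1400 and 1850) and below those of sets c (6277 and 7362) and d (5792 and 5680). Ly6c2, a surface protein of fresh monocytes, was at 1375 and 1918 CPM, below the cells of set a (3662 and 5267) and above those of sets c (752 and 638) and d (383 and 523). In both genes, then, the Ptgs2/Vegfa macrophages lay between monocyte-like and more mature groups. However, Ly6c2 was itself a gene of set a, and C1qa was a gene of the gate. C1q genes had no UMI in 61 wildtype and 80 Glut5 KO cells.

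Markers of other cell types were present at varied levels. Plasmacytoid dendritic cell markers summed to 1506 and 1470 CPM, of which Bst2, also expressed by macrophages, gave 1379 and 1377. Conventional dendritic cell markers summed to 598 and 552 CPM, of which Irf8, also expressed by monocytes, gave 451 and 419, and Xcr1 was at 0 in wildtype. Microglial markers summed to 1130 and 1176 CPM with Sall1 at 0 in wildtype and Slc2a5 at 0 in Glut5 KO, and the rule itself limited 6 microglial genes. T cell markers summed to 22.5 and 30.5 CPM, and the 3 Cd3 genes were at 0 by the rule. NK cell markers summed to 199 and 140 CPM, and those of stromal, endothelial, glial and tumour cells to 60.2 and 77.5 CPM. Neutrophil markers summed to 226 and 351 CPM, with Ly6g, Camp, Ngp, Retnlg and Stfa2l1 at 0 in wildtype and Stfa2l1 at 0 in Glut5 KO. At least 1 UMI of 5 neutrophil genes was present in 187 and 325 cells, but at least 10 UMIs in 3 and 2 cells. B and plasma cell markers summed to 110 and 242 CPM, and 1 Glut5 KO cell held 15402 of the 16447 immunoglobulin UMIs of that library's cells. The part of these other markers in the results below was not tested beyond the values given.

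To see what else marked these cells, their levels were set against the other gated macrophages of the same library. A gene counted as higher or lower when its ratio passed 1.5-fold in both libraries, among 6704 genes with at least 100 UMIs in the cells that were not used by the rule. By this measure 92 genes were higher (1.37% of those measured) and 68 were lower (1.01%). The cells were chosen on the same contrast, so these values describe them and support nothing.

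Of all lists, that of NF-kB subunits, feedback inhibitors and targets had the highest median. Of its 38 measured genes, 11 were higher in both libraries and 0 were lower, with median log2 ratios of 0.44 in wildtype and 0.68 in Glut5 KO, against -0.03 and -0.04 over all measured genes. Inhibitors and activating parts of the pathway were both among the higher genes. Tnfaip3, the ubiquitin-editing inhibitor A20, was at 190 and 269 CPM, against 103 and 135 in the other gated macrophages. Nfkbia, the inhibitor that holds NF-kB in the cytoplasm, was at 633 and 912 CPM, against 360 and 416. Tnip3, another inhibitor and a binding partner of A20, was at 41.6 and 48.2 CPM, against 15.4 and 15.6. Among the activating parts, Malt1, a protease of the same pathway, was at 172 and 166 CPM, against 100 and 91.8, whereas the subunit genes Rela and Nfkb1 had log2 ratios of 0.08 and 0.10 in wildtype. Gadd45b, a stress-response gene, was at 477 and 644 CPM, against 246 and 225. Against the cells of set a alone, the NF-kB medians were 0.30 and 0.52, with 12 higher and 1 lower. Immediate-early genes, which also respond to tissue dissociation, stood nearly as high, with medians of 0.39 and 0.50. Of 33 measured, 3 were higher in both libraries and 0 lower. Their medians against set a alone were 0.21 and 0.44, and the part of dissociation was not tested.

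Interleukin-1 genes stood higher as well, with 4 of 10 measured genes past the limit in both libraries (against 1.37% of all measured genes). The medians of the list were 0.11 in wildtype and 0.33 in Glut5 KO. Against the cells of set a alone they were 0.08 and 0.20, with 1 gene higher and 1 lower. Il1b, the secreted cytokine, was at 6883 CPM in wildtype and 6138 CPM in Glut5 KO, against 3951 and 3262. Il1a, which is active without cleavage, was at 155 and 67.8 CPM, against 54.1 and 37.3. Nlrp3, the sensor of the inflammasome that cleaves pro-interleukin-1, was at 189 and 187 CPM, against 118 and 102. Both the agonists and their blockers were thus high in the same cells, since Il1r2, the decoy receptor, was at 539 and 296 CPM, against 300 and 196. Pycard, the inflammasome adaptor, went the other way in wildtype, with a log2 ratio of -0.60.

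Inhba, which encodes the activin A subunit, led the genes outside the rule that reached 50 CPM in a library. It was at 31.4 and 58.3 CPM, against 5.87 and 7.38 in the other gated macrophages. Its UMIs lay in only 46 wildtype and 86 Glut5 KO cells, with 35.2% and 27.5% of them in the 5 richest cells. Tnf, at 63.5 and 75.6 CPM against 42.1 and 52.3, and Osm, at 272 and 348 CPM against 188 and 215, were higher but did not pass 1.5-fold in both libraries. After Inhba came Upp1, a uridine phosphorylase, at 37.4 and 101 CPM against 8.39 and 23.02. Upp1 UMIs lay in 51 wildtype and 193 Glut5 KO cells, with 40% and 17.4% of them in the 5 richest cells. Egr2, an early growth response transcription factor, was at 113 and 101 CPM, against 51.6 and 32.6. Others near the top were Nrg1, an ErbB receptor ligand (78.4 and 108 CPM, against 41.6 and 29.7), Htr7, a serotonin receptor (55.4 and 36.4, against 27.9 and 19.2), and Tnfaip2 (241 and 172, against 120 and 75.7). Dpep2, Ralgds, Ifitm1 and Batf2 completed the group, with log2 ratios from 0.89 to 1.28 over both libraries.

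The hypoxic side of the programme was thin once Vegfa was set aside. In the list of hypoxia-response genes, 3 of 22 measured genes were higher in both libraries, with medians of 0.08 in wildtype and 0.48 in Glut5 KO. They were Hilpda, a lipid droplet protein (50.3 and 85.1 CPM, against 30.8 and 47.1), Ndrg1 (33.8 and 46.3, against 19.2 and 25.3) and Ankrd37 (19.5 and 24.2, against 12.3 and 11.8). Other standard targets stood apart from the other gated macrophages in Glut5 KO more than in wildtype, a difference that was not tested. Bnip3, a mitophagy receptor, had log2 ratios of 0.19 in wildtype and 0.85 in Glut5 KO, Ero1l -0.11 and 0.95, Egln3 -0.69 and 0.90, and Ddit4 -0.01 and 1.06. Of 20 glycolysis and lactate export genes, 2 were higher in both libraries: Slc2a1, the main glucose transporter, at 189 and 244 CPM against 125 and 125, and Aldoc, at 28.4 and 20.6 against 16.1 and 10.5. Apart from Vegfa, the name hypoxic thus rested on a few genes, and in wildtype the median of the list (0.08) was near that of all genes (-0.03). Against the cells of set a alone, the medians of the hypoxia list were -0.20 and 0.24. Of 20 measured angiogenic and tissue-remodelling genes, a list without Vegfa, 0 were higher and 2 lower in both libraries, with medians of -0.14 and -0.19. Set a alone as the reference gave medians of -0.53 and -0.29 for them, with 2 higher and 6 lower.

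Genes induced by interferon-gamma were higher in part. Of 30 measured, 10 were higher in both libraries and 0 lower, with medians of 0.30 and 0.43. Nos2, the inducible nitric oxide synthase, was at 14.1 and 40.6 CPM, against 2.80 and 4.47. Cxcl9, a chemokine for activated T cells, was at 597 and 484 CPM, against 301 and 261. Irf1, a transcription factor of this response, was at 374 and 517 CPM, against 245 and 262. Against the cells of set a alone, the medians were -0.05 and 0.05, so the height of this list depended on which macrophages served as the reference. Of 9 measured arginine, itaconate and polyamine enzymes, 3 were higher: Nos2, Arg2 (35.3 and 58.8 CPM, against 21.3 and 21.95) and Acod1, the itaconate-making enzyme (235 and 306, against 126 and 130). Arg1, often used to mark hypoxic tumour macrophages, was at 45.5 and 45.7 CPM, against 41.9 and 20.1.

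MHC class II genes passed the limit in 0 of 12 cases, although their medians were 0.41 and 0.29. H2-Aa, a class II chain, was at 10385 and 12963 CPM, against 6628 and 9778. Of 18 measured inhibitory ligands and receptors of myeloid cells, 3 were higher and 0 lower, with medians of 0.14 and 0.04, and with cells of at least 3000 UMIs 0 passed in both libraries. The 3 were ligands. Cd274, which encodes PD-L1, was at 246 and 370 CPM, against 159 and 177, and Pdcd1lg2, which encodes PD-L2, was at 16.2 and 19.6, against 10.3 and 6.605. Cd80, a ligand of CD28 and CTLA-4, was at 126 and 80.7 CPM, against 79.1 and 53.8. The 3 class I genes past the limit, H2-Q4, H2-Q6 and H2-Q7, are near-identical copies whose reads may have been divided arbitrarily.

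Other genes of prostaglandin and leukotriene metabolism were divided. Of 11 measured, 0 were higher and 2 were lower in both libraries, with medians of -0.11 and -0.18. Against the cells of set a alone the medians had the other sign (0.28 and 0.19), with 1 higher and 1 lower. Hpgds, the prostaglandin D synthase, was at 31.1 and 25.7 CPM, against 59.4 and 69.3, and the constitutive cyclooxygenase Ptgs1 was the other. Ptger4, a receptor for prostaglandin E2, had log2 ratios of 0.60 and 0.41. Myeloid chemokines other than Cxcl2 were also divided: Cxcl1 was higher (4.49 and 26.1 CPM, against 1.40 and 6.31), Ccl7 and Ccl8 were lower, and Ccl3, Ccl4 and Ccl2 had wildtype log2 ratios of 0.36, -0.01 and -0.21. Cxcl1 rested on few cells, 4 in wildtype and 14 in Glut5 KO.

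Lipid-associated phagocyte genes were the lowest list, with 0 of 18 higher, 5 lower and medians of -0.43 and -0.45. The reference held the cells of set d, chosen on Spp1 and Fabp5, and against the cells of set a alone the medians were -0.16 and 0.11, with 2 higher and 0 lower. Gpnmb, a transmembrane glycoprotein of macrophages filled with lipid, was at 12.6 and 41.3 CPM, against 50.8 and 634. Ctsd, a lysosomal protease, was at 292 and 499 CPM, against 686 and 1328. Cd63, a tetraspanin of late endosomes, was at 129 and 129 CPM, against 335 and 544. Spp1 and Fabp5, genes of set d, were low by the rule. Type I interferon genes were lower in the median (-0.20 and -0.25) with 0 of 31 higher and 1 lower, and against the cells of set a alone 16 of 31 were lower in both libraries. Wfdc17, Cd81, Ckb and Selenop were other low genes outside the lists, with log2 ratios between -0.92 and -1.98.

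**Figure D2:**
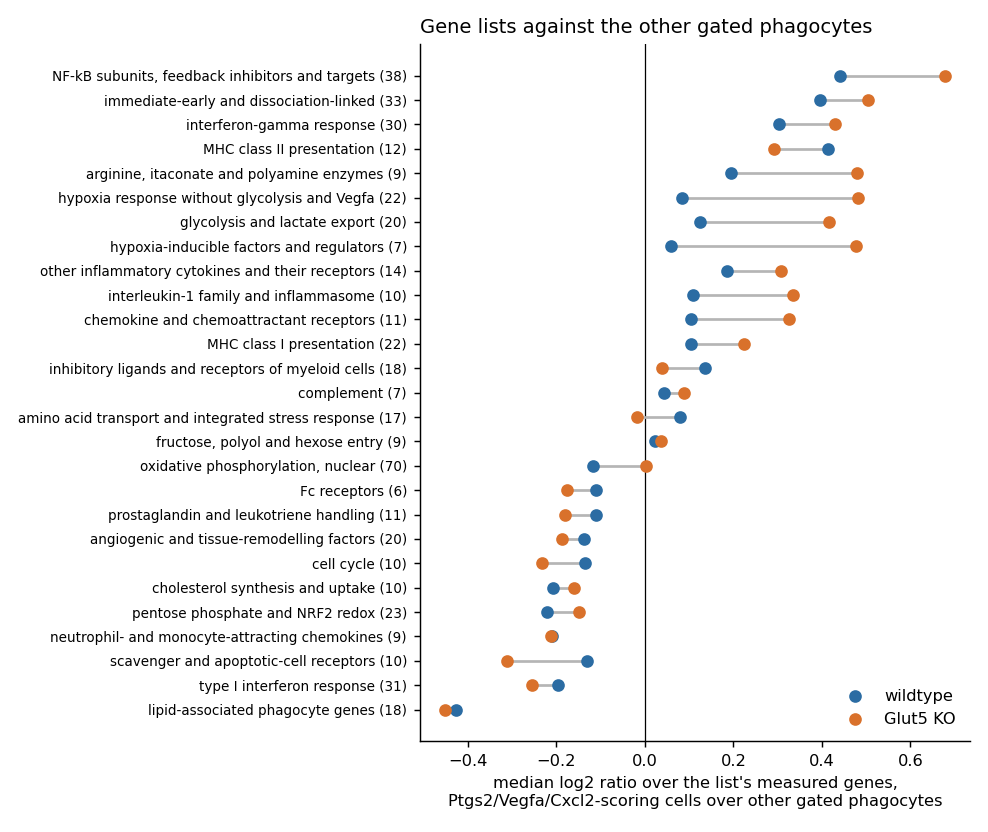
Median log2 ratio of Ptgs2/Vegfa macrophages over the other gated macrophages for each gene list with at least 5 measured genes (number measured in brackets), in wildtype (blue) and Glut5 KO (orange). NF-kB genes stand highest (0.44 and 0.68), hypoxia-response genes are at 0.08 and 0.48, and lipid-associated genes stand lowest (-0.43 and -0.45).

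The cells differed among themselves in which of the 5 genes led their score. In wildtype, 130 cells were led by Vegfa, 122 by Ptgs2, 108 by Il1rn, 106 by Cxcl2 and 80 by Ccrl2. In Glut5 KO, 264 were led by Cxcl2, 247 by Ptgs2, 185 by Vegfa, 119 by Il1rn and 87 by Ccrl2. Cxcl2-led cells were thus 19.4% of the wildtype and 29.3% of the Glut5 KO cells, and median depths of the groups ran from 5157.5 to 6676.5 UMIs. Genes outside the rule were then compared between each group and the remaining Ptgs2/Vegfa macrophages of its library, and the examples below are among the 6 with the highest ratios in both libraries.

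Cells led by Cxcl2 had higher levels of some monocyte-attracting chemokines than the remaining cells. In them Ccl7 was at 193 CPM in wildtype and 390 CPM in Glut5 KO, against 99.4 and 153 in the remaining cells. Ccl12 was at 733 and 1031 CPM, against 343 and 560, and Ccl2 was at 490 and 585, against 301 and 282. All 3 encode ligands that recruit monocytes through Ccr2. The whole list of neutrophil- and monocyte-attracting chemokines, which leaves out Cxcl2, summed to 4189 and 5409 CPM in these cells and to 4516 and 4832 in Il1rn-led cells, so in wildtype the Il1rn-led cells were higher. Ccl4 was also higher in Il1rn-led cells (2761 and 3024 CPM, against 2028 and 2388). In Cxcl2-led cells Mt1, a metallothionein, was at 775 and 771 CPM, against 457 and 408 in the remaining cells. In Glut5 KO the Cxcl2-led group had the highest sum of NF-kB genes, 11920 CPM, with 8206 to 10174 in the other groups. In wildtype it had 8903 CPM, below Ccrl2-led cells (9914) and above the rest (7915 to 8603). Neutrophil markers summed to 786 CPM (1200 UMIs) in the Glut5 KO group, against 157 to 194 CPM in the other Glut5 KO groups. Of these 1200 UMIs, 475 were of S100a9 (311 CPM), and they lay in 2 cells. That part of the group's signal was not tested further.

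Cells led by Vegfa had more Arg1 and Klf2 than the pooled remaining cells. Arg1, an arginine-degrading enzyme, was at 100 CPM in wildtype and 65.7 CPM in Glut5 KO, against 31.3 and 40.5 in the remaining cells, but Ptgs2-led Glut5 KO cells had as much (68.0 CPM). Klf2, a transcription factor that restrains inflammatory genes, was at 448 and 296 CPM, against 227 and 188. Their hypoxia-response genes summed to 3080 CPM in wildtype, the highest of the 5 wildtype groups (the others ran from 2347 to 2725), and to 3649 CPM in Glut5 KO, second to the Ccrl2-led cells (3894). Myeloid chemokines were lowest there, at 2916 and 2475 CPM. The genes singled out in Il1rn-led cells included Gpr84, a receptor for medium-chain fatty acids, and 2 antiviral genes: Ifit3b was at 88.5 and 100.4 CPM, against 47.9 and 56.3, and Cmpk2 at 46.4 and 100.4, against 30.9 and 41.6. The type I interferon list as a whole summed to 12954 and 15251 CPM there, close to Vegfa-led cells (12995 and 15358) and in wildtype below Ccrl2-led cells (13457). Genes singled out in Ptgs2-led and Ccrl2-led cells, such as Sipa1l2 and Fastk, shared no list, and most were low. Gadd45g was higher, at 73.7 and 175 CPM in Ptgs2-led cells, against 47.2 and 121 in the remaining cells.

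**Figure D3:**
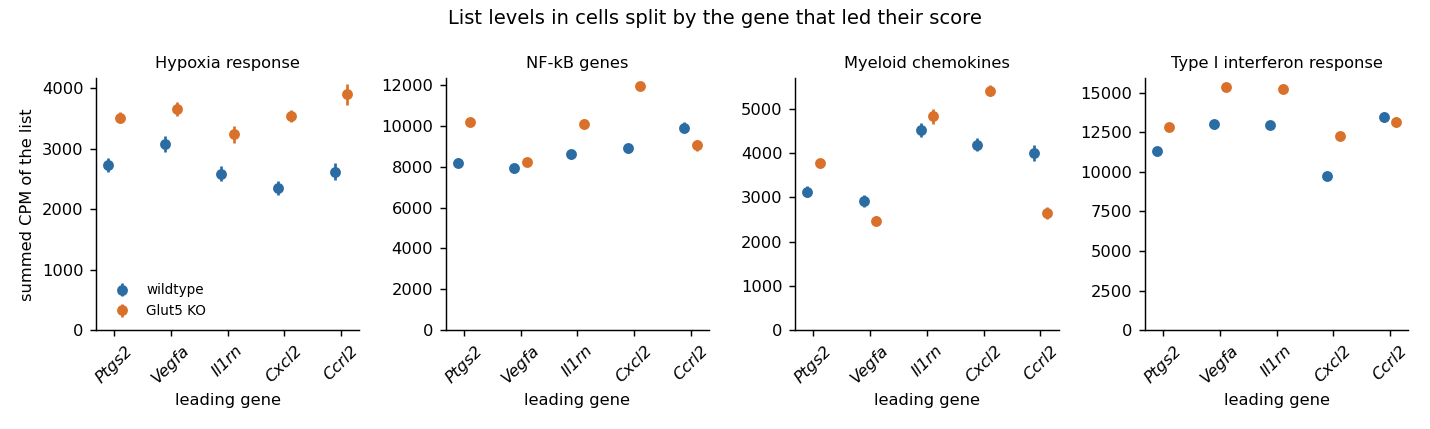
Summed CPM of 4 gene lists in Ptgs2/Vegfa macrophages, divided by the gene that led each cell's score, in wildtype (blue) and Glut5 KO (orange). Bars are exact 95% Poisson intervals, and the Cxcl2-led Glut5 KO cells have the highest NF-kB sum (11920 CPM).

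Male and female cells were unequally represented. A cell with a Y-linked UMI and none of Xist was called male, and a cell with the reverse female. Both libraries held both, which 1 animal does not give. Of Ptgs2/Vegfa macrophages with a call, 79.7% were male in wildtype (216 of 271) and 75.6% in Glut5 KO (285 of 377), while over all passing cells 55.6% and 43.2% were male. Among gated male cells, 33.4% of wildtype and 48.3% of Glut5 KO cells were Ptgs2/Vegfa macrophages, and among gated female cells 14.7% and 16.4%. The sexes come from different animals, so sex and animal cannot be told apart, and values within male and within female cells are given beside many of the comparisons below.

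The first check of the genotype was Slc2a5 itself (ENSMUSG00000028976, chromosome 4, 150119283 to 150144169, GRCm38). Over all barcodes it had 384 UMIs in wildtype and 1 in Glut5 KO. In Ptgs2/Vegfa macrophages it had 1 UMI in wildtype (0.30 CPM) and 0 in Glut5 KO, where a floor of 3 counts is 0.57 CPM. The transporter was thus barely detectable in these cells in either library, and its loss could not be seen in them at this depth.

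Between the libraries, 243 of the 6704 measured genes were at least 1.5-fold higher in Glut5 KO (3.62%) and 168 were at least 1.5-fold lower (2.51%). Of the 243 higher genes, 194 passed the same fold in male cells, 102 in female cells and 69 in both. Of the 168 lower genes, 132 passed in male cells, 72 in female cells and 49 in both. Male cells gave 1460013 wildtype and 2024736 Glut5 KO UMIs and female cells 389425 and 704823, so fewer genes could be compared in female cells. In the other gated macrophages, the shares of genes at least 1.5-fold higher and lower were 2.03% and 1.72% for set a, 2.17% and 2.57% for set c, and 4.34% and 1.69% for set d.

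Hypoxia-response genes were the list with the highest median between the libraries. Of 22 measured, 7 were at least 1.5-fold higher in Glut5 KO (against 3.62% of all measured genes) and 0 were lower, with a median log2 ratio of 0.32. Ddit4, an inhibitor of mTORC1, was at 16.8 CPM in wildtype and 60.2 CPM in Glut5 KO. Ero1l, an oxidase of the endoplasmic reticulum, was at 28.4 and 52.2 CPM. Egln3, an oxygen sensor that is itself induced by hypoxia-inducible factors, was at 5.99 and 16.0 CPM. Mif, a cytokine, was at 922 and 1396 CPM (-0.29 on the log2 scale in female cells), and Hilpda and Egln1 were also past the limit, as was Kdm3a, a histone demethylase. The 20 glycolysis genes had a median of 0.27, with 1 past the limit, the enolase copy Eno1b, which is nearly identical to Eno1. Male and female cells differed in these lists, with no test of that difference. The hypoxia list had a median of 0.49 in male cells and -0.0028 in female cells, and the glycolysis list 0.52 in male and -0.14 in female cells. In the other gated macrophages, the medians of the hypoxia list were 0.05 (set a), -0.01 (set c) and 0.22 (set d), and the difference between groups was not tested.

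Interferon-gamma genes also stood higher in Glut5 KO. Over all cells 6 of 30 were at least 1.5-fold higher in Glut5 KO (against 3.62% of all measured genes) and 0 were lower, with a median of 0.27. Iigp1, an interferon-inducible GTPase, was at 137 and 206 CPM, Gbp5, a guanylate-binding protein, at 91.3 and 144, and Nos2 at 14.1 and 40.6. In male cells the median was 0.16 and in female cells 1.01. Female wildtype cells, 55 in number, had 28.2 CPM of Cxcl9 and 5.14 CPM of Iigp1, whereas male wildtype cells had 758 and 174. Female Glut5 KO cells had 420 and 88.0 CPM, and male ones 539 and 240. The female wildtype cells were the low group in both genes. MHC class II genes showed the same layout, with a median of 0.07 over all cells, -0.07 in male cells and 0.93 in female cells. Type I interferon genes had a median of 0.23, with Rsad2 (243 and 415 CPM), Oasl1 and Ddx60 past the limit, and medians of -0.07 and 0.53 in male and female cells. The other gated macrophages showed rises of these lists too, apart from MHC class II genes in set d. For sets a, c and d, the interferon-gamma medians were 0.27, 0.51 and 0.17. Those of MHC class II genes were 0.36, 0.40 and -0.0038, and those of type I interferon genes 0.46, 0.27 and 0.37. The difference between groups was not tested.

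Cholesterol genes, which together summed to only 274 CPM in wildtype and 209 CPM in Glut5 KO, had the lowest median. The median was -0.48 over 10 measured genes. Of these, 5 were at least 1.5-fold lower in Glut5 KO (against 2.51% of all measured genes) and 0 were higher. Among them, Fdps, a farnesyl diphosphate synthase, was at 47.0 and 27.8 CPM, and Msmo1, Fdft1 and Idi1, enzymes of the same synthesis, were also past the limit. The list's medians were -0.82 in male and -0.14 in female cells. In the other gated macrophages they were -0.11 (set a), -0.52 (set c) and -0.22 (set d). Cholesterol exporters were higher: Abca1 was at 53.3 and 99.8 CPM, with a log2 ratio of -0.80 in female cells, and Abcg1 at 26.3 and 51.8. Of 18 lipid-associated genes, 4 were higher and 1, Cd9, was lower (315 and 174 CPM), against 3.62% and 2.51% of all measured genes.

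NF-kB genes, which stood out against the other macrophages, had a median of 0.10 between the libraries, with 2 of 38 past the limit. Ier3, an early response gene that protects from cell death, was at 442 CPM in wildtype and 1082 CPM in Glut5 KO, and Marcksl1 was at 334 and 512, with a log2 ratio of -0.21 in female cells. Ier3 was at 324 CPM in male wildtype cells and 1170 CPM in male Glut5 KO cells, and in female cells at 475 and 281, so the sexes differed in direction, which was not tested. Among the early response genes, Egr1 (175 and 105 CPM), Nr4a1 (1426 and 874) and Nr4a2 were lower in Glut5 KO, and Hspa1a, Hspa1b and Dnajb1, which encode heat-shock proteins, were higher. Hspa1a and Hspa1b are near-identical copies. Such genes also respond to tissue dissociation, and the part of dissociation was not tested.

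The interleukin-1 genes did not move as one. Il1a was at 155 and 67.8 CPM, with a log2 ratio of -1.20, and was lower in male (-1.23) and female cells (-1.62). Il1b was at 6883 and 6138 CPM (-0.17), and Il1rn is given above. Il1r2 had a log2 ratio of -0.87 [-0.97 to -0.77], with -1.59 in male and 0.87 in female cells. Il18bp, the soluble blocker of interleukin-18, was at 80.8 and 135 CPM. Fn1, the matrix protein fibronectin, was at 224 and 88.5 CPM, and was lower in Glut5 KO in all 3 other macrophage groups as well, with log2 ratios from -0.95 to -1.16. Gpr183, an oxysterol receptor that guides cell migration, was at 104 and 39.0 CPM, against ratios of -0.17, 0.02 and -0.18 in sets a, c and d. Spint1, a protease inhibitor, was at 205 and 102 CPM, and Hic1, a transcriptional repressor, at 98.2 and 40.6, with female log2 ratios of 0.32 and 0.12.

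Among chemokines, Ccl5, which attracts T cells and monocytes, was at 2397 CPM in wildtype and 4656 CPM in Glut5 KO. In male cells its log2 ratio was 1.79 and in female cells -0.74. Ccl12 was at 429 and 697 CPM and Ccl7 at 120 and 222, and both were higher in male and in female cells. Ccl8 was at 2.99 and 44.4 CPM, but its wildtype UMIs lay in 8 cells. Slpi, a secreted protease inhibitor, was at 25.4 and 165 CPM, with log2 ratios of 3.05 in male and 0.21 in female cells. Upp1, at 37.4 and 101 CPM, had ratios from 1.60 to 1.82 in the other 3 groups of macrophages. Gadd45g, a stress-response gene, had a ratio of 1.36, with -0.28 in female cells, and Ntpcr had -0.92. Fabp5 (1.83, with -1.26 in female cells) and Acp5 (-1.24) were genes of the rule's other sets.

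The highest ratios among genes that reached 50 CPM belonged to Dpys and Dcstamp. Dpys, a pyrimidine-degrading enzyme, was at 11.4 CPM in wildtype and 135 CPM in Glut5 KO, a log2 ratio of 3.55 [3.098 to 4.080]. Dcstamp, a membrane protein of cell fusion, was at 12.9 and 138 CPM, a ratio of 3.41 [2.978 to 3.902]. The 2 genes neighbour each other on chromosome 15 (GRCm38), with Dcstamp at 39745930 to 39760938 and Dpys at 39768487 to 39857470. Both were higher in male and female cells, with Dpys at 3.87 and 3.15 and Dcstamp at 2.24 and 4.91. They were higher in every other macrophage group too, with ratios of 2.97 to 4.86. Sh3bgrl3, within 30 Mb of Slc2a5 on chromosome 4 (134127406 to 134128789), was at 1386 and 577 CPM, and its ratios in the other groups ran from -1.16 to -1.53.

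Some of the extreme ratios came from very few cells. The S100a9 UMIs of the Glut5 KO cells lay in 2 cells, and those of S100a8 lay to 94.3% in the 5 richest cells; both are neutrophil genes. Gzma, a granzyme of lymphocytes that was lower in Glut5 KO (73.6 and 17.3 CPM), had 86.2% of its wildtype UMIs in 5 cells. Il12b, an interleukin-12 subunit of dendritic cells, was at 58.1 and 22.1 CPM, with 88.7% and 88.8% in 5 cells. Values of these 4 genes describe those cells and not the group. Without cells that had any UMI of 5 neutrophil genes, 186 genes were higher and 125 lower in Glut5 KO.

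**Figure D4:**
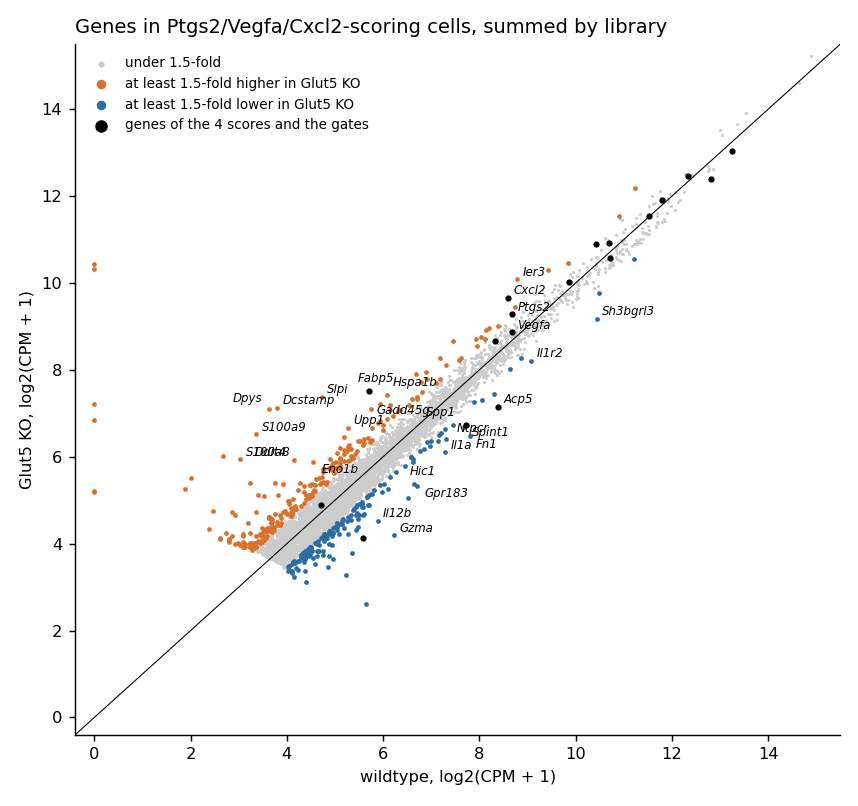
Level of each measured gene in Ptgs2/Vegfa macrophages, as log2(CPM + 1), in wildtype (x axis) and Glut5 KO (y axis). Orange points (243) are at least 1.5-fold higher and blue points (168) at least 1.5-fold lower in Glut5 KO, black points are genes of the rule, and the points at the left edge are immunoglobulin genes and Jchain with no wildtype UMI.

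**Figure D5:**
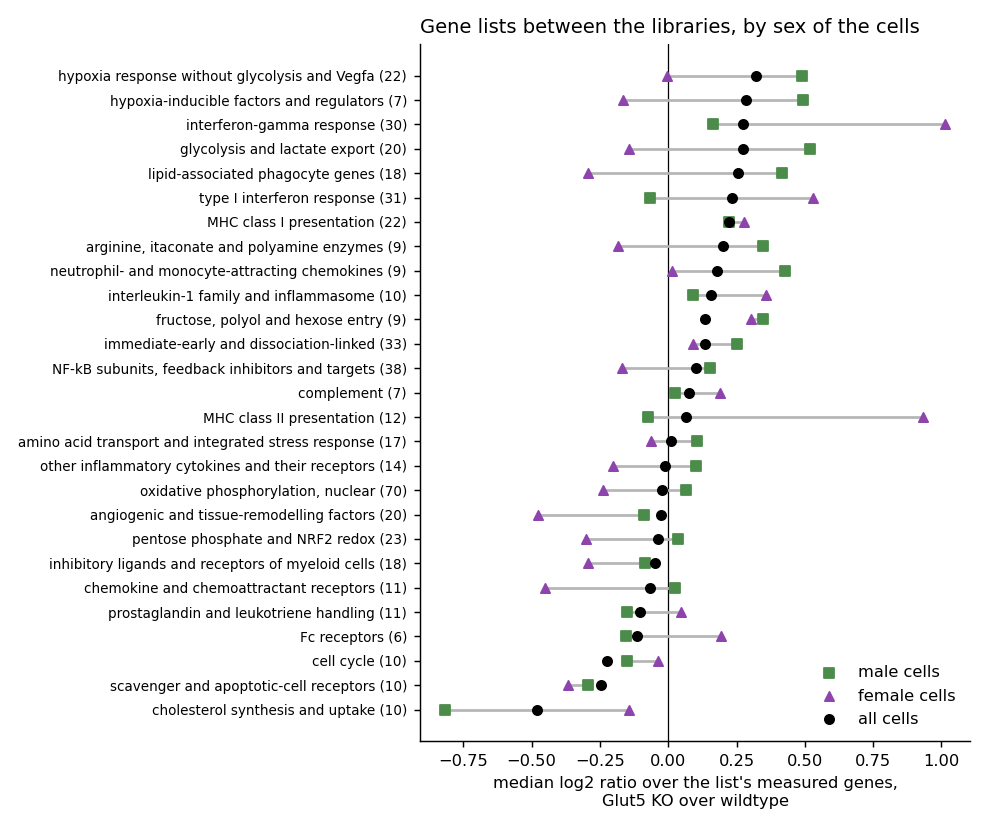
Median log2 ratio of Glut5 KO over wildtype for each gene list in Ptgs2/Vegfa macrophages (number of measured genes in brackets), over all cells (circles), male cells (squares) and female cells (triangles). Hypoxia-response genes are at 0.49 in male cells and near 0 in female cells, and interferon-gamma genes are at 0.16 and 1.01.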

How the data were processed

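The files hold 2 single-cell libraries of CD45+ cells made with 10x 5' v2 chemistry, per the labels' protocols. The deposited values are raw UMI counts for each gene in each barcode, per the file headers. The submitters' processing notes name Cell Ranger 3.1.0 with mm10, and the headers of the matrices name 7.0.1. The sources used here give no annotation release and no strand setting, so overlapping genes may share reads.

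Cells were gated, scored and assigned as described above, with log values of UMIs per 10000 standardised over the gated cells of both libraries (Python 3.11.15, scanpy 1.11.5, numpy 2.4.6, scipy 1.17.1). Limits on single UMIs can admit shallow cells more readily. Gated cells had median depths of 5474 and 4326 UMIs, against 8682 and 6523.5 over passing cells. Passing cells include other cell types, and the part of the limits in this difference was not tested. Doublets were kept, and the top 8% of Scrublet scores (expected rate 0.08, per library) was left out as an alternative. UMIs were summed per library, and log2 ratios used 0.5 added to both counts. No test was possible on single libraries. Exact intervals (Poisson for levels, Clopper-Pearson for shares, conditional binomial for ratios) cover counting error only. T cells for the background had at least 2 Cd3 UMIs and under 50 phagocyte UMIs per 10000.

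The cells, the 28 gene lists and the naming rule were chosen with earlier results of these data known. Named genes are the 5 score genes, Slc2a5, the 12 highest and 12 lowest ratios between the libraries, the 20 highest and 10 lowest over the other gated macrophages (reaching 100 UMIs in all and 50 CPM in a library, outside several technical gene classes), and from each list the ends of its range and members shown for their role. The comparison was checked on simulated counts. Alternatives were other standardisations, a lead of at least 0.1, thinning, other UMI limits, means over cells, median centring, and male or female cells alone. Positions are from GENCODE vM21 and promoters from RefSeq. Some genes of the lists are not reported here.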

Additional observations from a re-analysis of the deposited data

Results flagged for a closer look

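Of the 24 genes at the ends of the comparison between the libraries and the 5 score genes, Ier3 and Il1r2 differed by at least 1.5-fold in opposite directions in male and female cells, with at least 100 UMIs in each. Ier3 had a log2 ratio of Glut5 KO over wildtype of 1.85 in male Ptgs2/Vegfa macrophages and -0.76 in female ones. Il1r2, the decoy receptor for interleukin-1, had -1.59 in male and 0.87 in female cells. Each value compares 1 library with 1 library within a sex, on 216 and 285 male or 55 and 92 female cells, and the difference between the sexes was not tested.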

How the results depend on the processing

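No paired analysis was possible because each genotype has 1 library. The share of gated macrophages was 25.4% in wildtype and 26.6% in Glut5 KO with scores standardised within each library, 29.2% and 35.2% with scores standardised over all passing cells, 21.7% and 31.1% after thinning to 2000 UMIs, and 21.7% and 32.9% among cells with at least 3000 UMIs, an alternative chosen after seeing the data. Thinning used only gated cells with at least 2000 UMIs, 2101 of 2469 in wildtype and 2078 of 3166 in Glut5 KO. Of the 546 wildtype and 902 Glut5 KO cells, 366 and 571 were again in the set. The rest include cells left out for low depth as well as cells that changed set. Against the cells of set a alone, also chosen after seeing the data, 154 genes were higher and 195 lower. Between the libraries, 736 genes were higher and 531 lower with a limit of 20 UMIs, 81 and 36 with 400 UMIs, and 103 and 93 in female cells, where 1604 genes were measured. The other alternatives moved these counts by less than 1.5-fold. The ratio between the libraries, Glut5 KO over wildtype on the log2 scale, changed sign in female cells for Cxcl2 (-0.39), Fabp5 (-1.26), Gadd45g (-0.28), Ier3 (-0.76), Hic1 (0.12), Spint1 (0.32) and Il1r2 (0.87), in male cells for S100a9 (-4.86) and S100a8 (-1.03), and without the top 8% of Scrublet scores for Gzma (2.12). The cause was not tested. Of the list medians, 14 of 25 moved in female cells, 8 of 27 in male cells, and at most 2 under each other alternative. Depth limits rare transcripts: 1 UMI is 0.30 CPM in the wildtype cells.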

Other observations

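Genes of other functions also differed between the libraries in Ptgs2/Vegfa macrophages. C3, the central complement protein, was at 173 CPM in wildtype and 405 CPM in Glut5 KO, and Cfp, which encodes properdin, was at 110 and 210, with both higher in male (1.58 and 1.22 on the log2 scale) and female cells (0.48 and 0.19). Hmox1, the haem-degrading enzyme, was at 101 and 237 CPM, and was the 1 gene past 1.5-fold among 23 measured genes of the pentose phosphate and NRF2 list. Slc7a11, the cystine transporter, marked the cells against the other gated macrophages (37.4 CPM against 15.8 in wildtype, and 27.8 against 12.1 in Glut5 KO). Of 70 nuclear respiratory chain genes, 0 passed 1.5-fold in either direction between the libraries, with a median of -0.02. Fructose-handling genes did not pass it either (0 of 9 measured), and Khk, the fructose kinase, was at 28.1 and 19.99 CPM.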
